A study of Mus musculus with 2 samples.

Results

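Immediate early and acute stress genes are transcribed within minutes of a stimulus from promoters that need no new protein. The list was written by gene name, with no threshold on measured values but with earlier results of these data known, and holds 40 genes with 73 probe sets that the platform annotation assigns to exactly 1 of them, out of 18193 genes with such a probe set. Of these 40, 38 reached the detection floor (a signal of 52.7, the mean over both arrays of the 40th percentile) in at least 1 array and are called measured. Arc and Egr4 did not, at 52.6 and 17.6 in the double knockout and 42.4 and 11.1 in the control.

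The signals came from glomeruli sieved from kidneys of male C57BL/6J mice at 2 months of age. Both genotypes were homozygous for floxed GC-A (the natriuretic peptide receptor gene Npr1) and floxed p38, a stress-activated kinase. The double knockout carried Nephrin-Cre as Cre/+, which is active in podocytes and leaves the other glomerular cells floxed but intact, and the floxed control was Nephrin-Cre +/+, read here as lacking Cre. All mice had eaten a 6% NaCl diet and received aldosterone at 0.2 μg per kg of body weight per minute by minipump for 3 weeks, so no unloaded animals stand beside them. There was 1 array for each genotype, and how many mice it stood for is not stated in the labels. There is therefore no replicate error and no test between genotypes. In what follows, higher and lower compare the double knockout array with the control array, and pairs of signals name the double knockout first.

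In this gene class, kinases of the ERK, JNK and p38 pathways phosphorylate factors already bound to DNA, among them serum response factor with its partners and CREB. The first transcripts encode further transcription factors, mainly Fos and Jun proteins that pair as AP-1, and members of the Egr, Nr4a and Klf families. Others encode brakes on the signal, such as MAP kinase phosphatases and proteins that destroy the short-lived messages. In kidney these genes respond to ischaemia, stretch, hormones and also to handling of the tissue; the time from kidney to RNA is not given in the sources used here, and its part in any difference was not tested.

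As a class the members read moderately higher in the double knockout. Of the 38 measured members 34 lay above 0 and 4 below, against 56.1% above 0 among all 13290 measured genes. Fosl1 and Ptgs2 passed the floor in the double knockout alone and so could only lie above 0. Of the 36 members above the floor in both arrays, 32 lay above 0. The members' median log2 difference was 0.38, against 0.07 over all measured genes. At least 2-fold higher were 2 members, Myc and Egr3, or 5.26%, where the share over all measured genes was 3.53%; no member was lower by 2-fold or more, where that share was 2.87%. With the rule at 1.5-fold, 14 members (36.8%) were higher against 13.7% of all genes, and 2 members (5.26%), Errfi1 and Nr4a3, were lower against 10.0%. Ptgs2 is among the 14. Just inside the 2-fold rule was Egr3 at 2.14-fold, and just outside were Maff at 1.999-fold, Cebpd at 1.99-fold and Fosl2 at 1.97-fold.

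Markers of cell types also differed between the arrays. The glomerular cell markers, 76 genes of podocytes, endothelium, mesangium and parietal epithelium, had a median of 0.63, above that of the members. All 25 proximal tubule markers and all 21 markers of the loop, distal tubule and collecting duct lay below 0, with medians of -0.81 and -0.67. Their summed signals were 223151 against 355299 and 73284 against 107414, in the double knockout and the control, while those of the podocyte markers (24 measured, 21 above 0, median 0.44) were 145387 against 120339 and those of the endothelial markers (23 of 23 above 0, median 0.72) were 90930 against 54538. All 20 macrophage and monocyte markers lay above 0 (median 0.89, summed signal 18287 against 10090). All 7 measured neutrophil markers lay below 0 (median -0.27), with median signals near the floor, 68.2 against 71.9. Of 9 measured lymphocyte markers 6 lay above 0 (median 0.05). No marker had a signal of 0, the labelled tissue had its podocyte markers, and tubule signal was present in both arrays. In such bulk RNA, fewer cells of a type and less RNA per cell cannot be told apart, and the part of cell makeup in the members' differences was not tested. When every difference was recentred on the glomerular marker median, the members' median became -0.25 and that of all measured genes -0.57. The recentring takes the same value from every gene and leaves the gap of 0.32 between these medians unchanged. Of the 38 members 14 then lay above 0, against 1580 of all 13290 measured genes. No member passed 2-fold upward, against 0.504% of all measured genes. Lower by 2-fold or more were 3 members (Nr4a3, Errfi1 and Zfp36) and 18.3% of all measured genes.

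**Figure D1:**
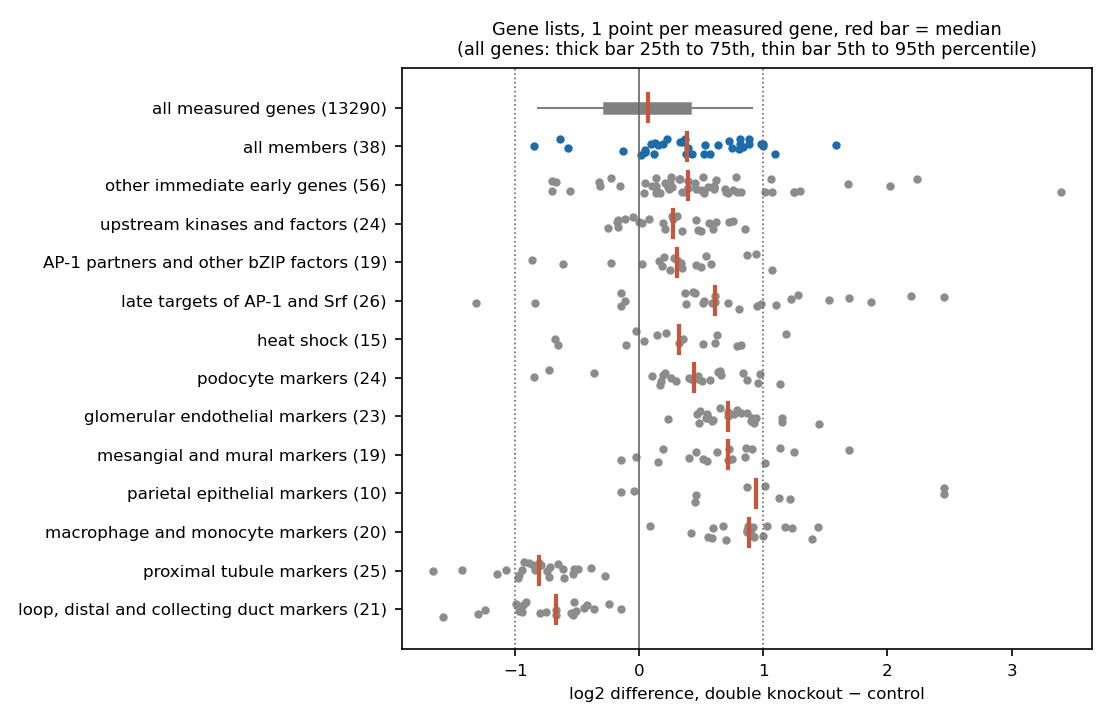
Log2 differences, double knockout minus control, of the members and of other gene lists, 1 point per measured gene with the number in brackets and a red bar at the median; dotted lines mark 2-fold. The members' median of 0.38 lies between that of all measured genes (0.07) and those of the endothelial, mesangial and parietal markers, and both tubule lists lie wholly below 0.

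The only error that can be estimated from these arrays is that between probe sets of the same gene. It leaves out variation between mice, tissue preparations and hybridisations, which 1 array per genotype cannot show. A difference larger than this error is therefore not shown to exceed those. Over 5418 genes with a second probe set above the floor, the gap between the log2 differences of the brightest and next brightest set had a robust SD of 0.46 where the dimmer signal was under 200, 0.28 between 200 and 1000, and 0.18 at 1000 and over. Differences of members whose mean signal on the log2 scale was that of under 200 are thus read with the least precision. Among them are Myc, Maff, Dusp5, Fosb, Egr2, Egr3 and Nr4a3. For the members themselves, 24 further probe sets of 16 genes were above the floor in both arrays, cross-hybridising sets left out, and 20 of them differed in the same direction as the set that represents the gene. Over the 5418 genes, the next brightest set did so in 75.2%, so the count is not particular to the members. RNA integrity was alike, with 3′ over 5′ signal ratios of 1.29 and 1.36 for Actb and 0.697 and 0.706 for Gapdh in the double knockout and control. Of the deleted genes, Npr1 read 102.1 against 166.8 (-0.71) and the brightest probe set of Mapk14 (p38α, the isoform assumed here to be the floxed one) 2607 against 2628 (-0.01); where these probe sets lie relative to the floxed exons is not given in the sources used here.

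**Figure D2:**
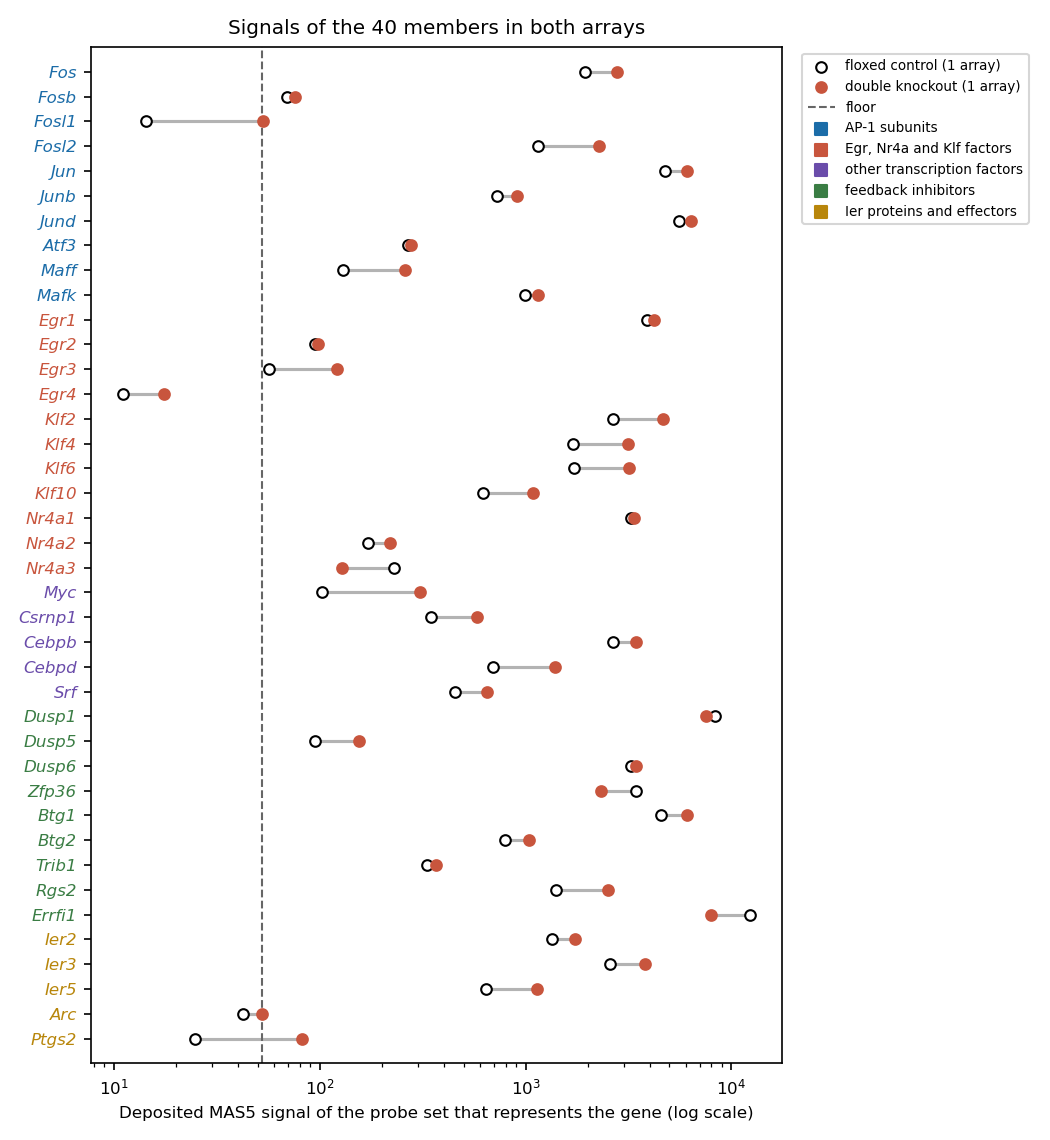
Deposited MAS5 signal (log axis) of each member in the floxed control (open circles) and the double knockout (filled circles), 1 array each, with genes coloured by role and the floor of 52.7 dashed. Most filled circles lie to the right of the open ones; Errfi1, Zfp36, Nr4a3 and Dusp1 are the exceptions, and Arc and Egr4 lie wholly below the floor.

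Among the AP-1 subunits with both signals above the floor the largest differences were those of Fosl2 and Maff, while the Jun genes and Atf3 differed little. Fosl2, which encodes the Fos relative Fra-2, read 2261 against 1146, a difference of 0.98 on the log2 scale. Its second probe set, far dimmer at 142.2 and 122.5, gave 0.21. Maff encodes a small Maf protein that lacks an activation domain, and it read 259.6 against 129.9 (0.999). Its relative Mafk read 1155 against 990.7 (0.22). Both values of Maff and Mafk go the same way, and that of Maff was at percentile 94.0 of the genes nearest in signal. Maff has 1 probe set, at a signal where the robust SD between probe sets was 0.46.

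Fos, the prototype of the class, read 2786 against 1936, or 1.44-fold higher (log2 difference 0.52). The order of Fos and Fosl2 depends on the probe set, since the dimmer set of Fosl2 gave the 0.21 above. Jun, the main partner of Fos, read 6077 against 4768 (0.35), with 0.47 in a second probe set. Junb read 908.3 against 724.2 (0.33) and Jund, a more constitutive member of the family, 6356 against 5557 (0.19). All 3 Jun genes were thus higher by 1.27-fold or less. When recentred on glomerular markers all 3 became negative (-0.28, -0.31 and -0.44), as did the median of all measured genes (-0.57). Atf3, a stress-induced repressor that pairs with Jun proteins, read 276.8 against 268.2 (0.05). Fosb was near the floor at 75.8 against 69.5 (0.12), and Fosl1 (Fra-1) had a control signal of 14.3, below the floor, and a signal of 53.2 in the double knockout, so that its fold is at least 1.01 and its size is not resolved. All 10 AP-1 subunits lay above 0, with a median of 0.27 with Fosl1 at its bound. After recentring 2 of the 10 stayed above 0, as did 1580 of all 13290 measured genes. Fosl1 passed the floor in the double knockout alone, so its direction was fixed by the floor rule.

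The Klf genes had the narrowest range of differences among the Klf, Egr, Nr4a, Jun and Fos families. Klf2, a zinc finger factor best known for the response of endothelium to flow, read 4666 against 2651 (log2 difference 0.82). Klf4, which has roles in podocyte and endothelial quiescence, read 3148 against 1709 (0.88), and its second probe set 0.96. Klf6, an injury-induced relative, read 3180 against 1721 (0.89), and its other probe sets gave 0.83, 0.91 and 1.17, with 1.496 in a cross-hybridising set. Klf10, a gene induced by TGF-β, read 1088 against 624.0 (0.80). The 4 log2 differences spanned 0.08, less than the robust SD of 0.18 between probe sets of a gene. Neither their order nor the narrowness of the span therefore carries information. All 4 lay above the glomerular marker median of 0.63 and stayed above 0 under every scaling tried (0.17 to 0.25 after recentring on those markers). They were at percentiles 93.0 to 96.4 of genes of like signal.

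The Egr and Nr4a genes, which share rapid induction with the Klf genes, did not show such a pattern. Egr1, a zinc finger factor that is among the first transcripts after ERK activation, read 4209 against 3885 (0.12). Nr4a1, an orphan nuclear receptor, read 3352 against 3255 (0.04). Both values are below the robust SD between probe sets at these signals, and Nr4a1 became -0.05 after centring on the median. Egr2 read 98.0 against 94.9 (0.05), with -0.22 in its other probe set. Egr3 passed the 2-fold rule through a dim probe set, 121.6 against 56.9 (1.09), while its other set read 59.5 against 96.9 (-0.70); the direction of Egr3 is therefore not settled by these arrays. Nr4a2 read 219.8 against 172.0 (0.35), and its other measured sets ranged from -0.13 to 0.69. Nr4a3 read lower, 128.0 against 230.0 (-0.85, 1.80-fold), in the only 1 of its 3 probe sets above the floor. It was at percentile 4.99 of genes of like signal and stayed below 0 under every scaling tried.

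**Figure D3:**
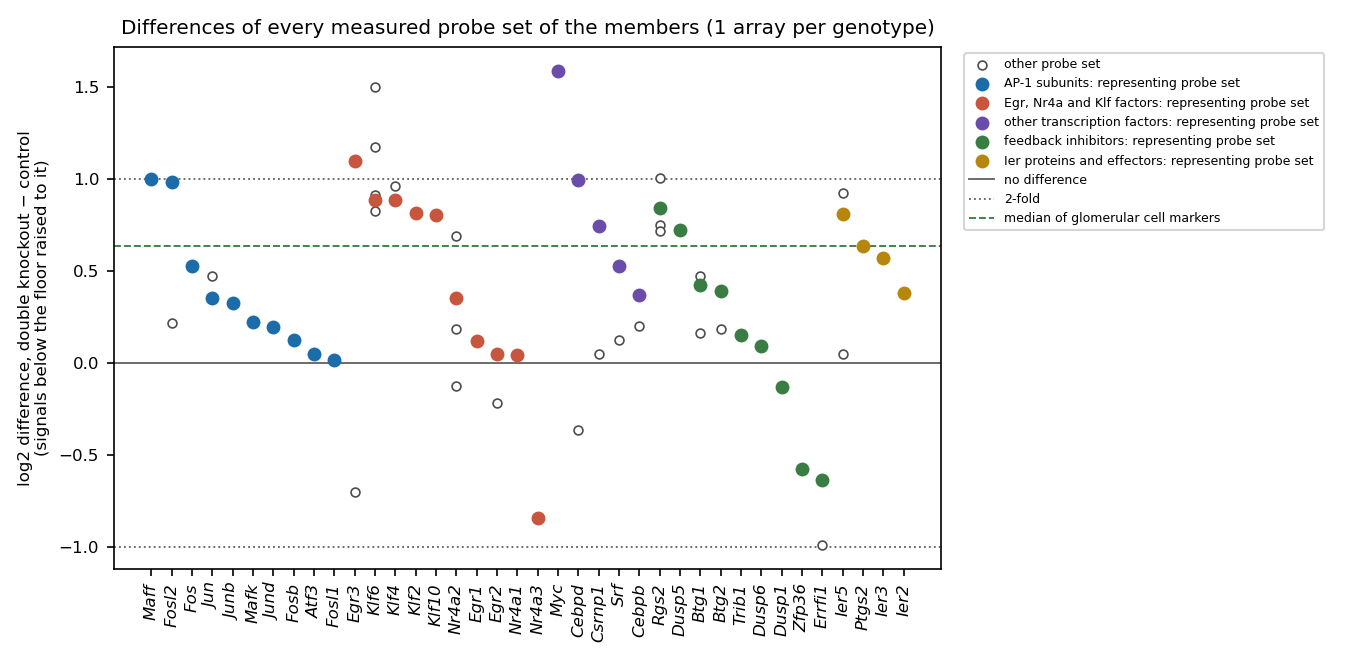
Log2 differences, double knockout minus control, of every measured probe set of the 38 measured members, ordered by role and size; filled points are the sets that represent the genes, open points the others, dotted lines 2-fold and the green dashed line the glomerular marker median of 0.63. The 4 Klf genes and Rgs2 have all their sets above that line, Errfi1 has both below 0, and the sets of Egr3, Cebpd, Egr2 and Nr4a2 lie on both sides of 0.

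Myc, one of the remaining transcription factors, had the largest difference among members with both signals above the floor of 52.7. With other floors it did not lead: Ptgs2, a lower bound here, was highest at 1.72 with a floor at the 25th percentile, Fosl1, also a bound, at 1.90 with no floor, and with one at the 60th percentile Myc fell to 0.77 and Cebpd was highest. Myc, a driver of growth and ribosome synthesis, read 307.2 against 102.4, 3.00-fold higher (log2 difference 1.59), at percentile 98.8 of genes of like signal. It has 1 probe set on the array, so no second set bears on it. Its mean signal on the log2 scale was that of under 200, where the robust SD between probe sets was 0.46. Cebpd, an acute-phase factor of the C/EBP family, read 1389 against 697.2 (0.99), but a dim second set read 98.4 against 126.9 (-0.37). Its relative Cebpb read 3422 against 2650 (0.37), with 0.20 in a second set. Csrnp1, a nuclear protein induced by axin, read 578.9 against 345.4 (0.75), and its other set, near the floor, 0.05. Srf, serum response factor itself, read 653.2 against 453.2 (0.53), but 495.7 against 454.3 (0.13) in its other set. All 5 of these factors lay above 0. After recentring on glomerular markers 3 of them (Myc, Cebpd and Csrnp1) remained so, as did 1580 of all 13290 measured genes.

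The feedback inhibitors were the role with the lowest share above 0, 6 of 9 (66.7%), against 56.1% of all measured genes. Their median was 0.15, with values from -0.64 to 0.84, a narrower range than the -0.85 to 1.09 of the Egr, Nr4a and Klf factors. Rgs2, which shuts off Gq-coupled receptors such as that of angiotensin II, read 2524 against 1412 (0.84). Its 3 other probe sets agreed in direction, at 0.72, 0.75 and 1.003. Among the MAP kinase phosphatases, Dusp5, specific for nuclear ERK, read 155.7 against 94.6 (0.72). Dusp6, the cytoplasmic ERK phosphatase, read 3452 against 3242 (0.09), and Dusp1, which acts on p38 and JNK, 7555 against 8278 (-0.13). The values of Dusp6 and Dusp1 are smaller than the robust SD between probe sets, and each changed sign with the scaling of the arrays (Dusp1 to 0.10 after removal of a loess trend, Dusp6 to -0.01 after centring on the 75th percentile). Btg1 and Btg2, antiproliferative proteins that recruit deadenylases, read 6080 against 4540 (0.42) and 1039 against 792.9 (0.39). Trib1, a scaffold that sends C/EBP proteins to degradation, read 366.8 against 330.9 (0.15).

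Lower in the double knockout were Errfi1 and Zfp36. Errfi1 encodes Mig6, an inhibitor of the EGF receptor, and read 7928 against 12326 (-0.64, 1.55-fold), with 3467 against 6881 (-0.99) in its second set. Zfp36 encodes tristetraprolin, which destroys messages with AU-rich elements, and read 2314 against 3453 (-0.58, 1.49-fold) in its 1 probe set. They stood at percentiles 20.8 and 14.6 of genes of like signal. Both stayed below 0 under every scaling tried, and Errfi1 also under every choice of probe set, at -0.37 or lower for Errfi1 and -0.54 or lower for Zfp36.

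The Ier genes encode small regulators named for immediate early response. Ier5 read 1131 against 645.3 (0.81), with 0.92 and 0.05 in its other sets. Ier3, a survival factor, read 3800 against 2559 (0.57) and Ier2 1735 against 1336 (0.38). Ptgs2, which encodes the inducible cyclooxygenase COX-2, had a control signal of 24.9, below the floor, and read 81.7 in the double knockout, at least 1.55-fold higher; its second set was below the floor in both arrays. All 4 measured members of this role were thus higher, Ier2, Ier3 and Ier5 by 1.30-fold to 1.75-fold and Ptgs2 by a fold of which only the lower bound is known (with no floor its log2 difference was 1.72). With its control below the floor, the direction of Ptgs2 was fixed by the floor rule.

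**Figure D4:**
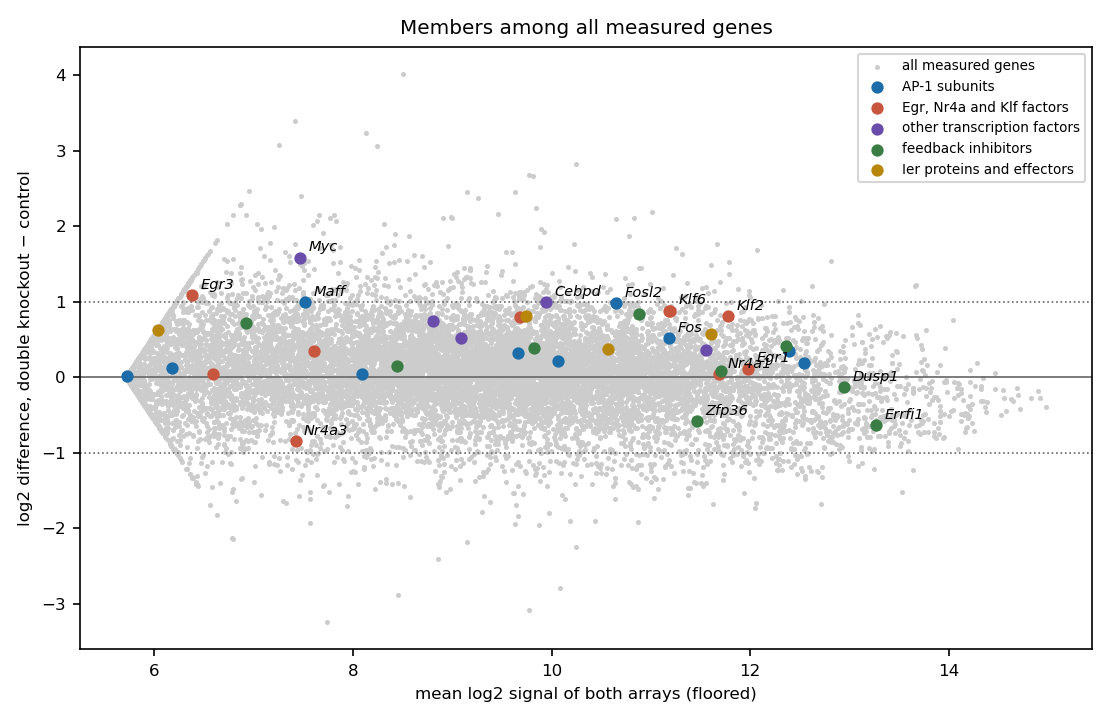
Log2 difference, double knockout minus control, against mean log2 signal for all 13290 measured genes (grey) and the 38 measured members (coloured by role), with 2-fold dotted. Myc and Egr3 lie above the upper line, Maff, Cebpd and Fosl2 just under it, and Egr1, Nr4a1 and Dusp1 near 0.

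Over the main setting and its 13 alternatives, 12 members kept a value above 0 wherever they were measured: Myc, Fosl2, Maff, Klf2, Klf4, Klf6, Klf10, Rgs2, Ier5, Csrnp1, Dusp5 and Ptgs2. Ptgs2 did so only at 0.0002 after recentring on glomerular markers, and Csrnp1 at 0.05 with the probe set of median difference. Errfi1, Zfp36 and Nr4a3 kept a value below 0. Myc, Maff, Klf2, Klf10, Dusp5 and Zfp36 have 1 probe set, so the alternative probe set choices could not change them. For the other 23 members the sign depended on the setting, and for all but 7 of these only on the recentring on glomerular markers. The well-known rapid genes Fos, Jun, Junb and Egr1 are among the 23, Fos at -0.11 and Egr1 at -0.52 after that recentring. The median of all measured genes was then -0.57.

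Promoters of members that share a CArG box or a cAMP response element are shown because the holders of each went both ways. RefSeq promoter windows on GRCm38.p6 were matched by symbol for 31 of the 40 members, and the 250 bases before each start were searched on both strands. The motifs were the CArG box bound by serum response factor (searched by its usual consensus), the cAMP response element TGACGTCA, the AP-1 site TGANTCA, the Egr site GCGTGGGCG or GCGGGGGCG, and the MEF2 site by its consensus. No match overlapped another. A match is a description of the letters and not of binding, and no match means only that the letters are not in the window. In the sequences, each the last 150 bases before the start in the gene's own direction, the motif named is in capitals.

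The CArG box was found in 4 of the 31 members (12.9%), against 1.62% of 27025 genes with a promoter window. Their log2 differences ran from -0.58 for Zfp36 to 0.72 for Dusp5, with Srf at 0.53 and Egr2 at 0.05. Dusp5 (chr19:53528995-53529144, plus strand) and Srf (chr17:46556163-46556312, minus strand) each hold 2 boxes, which in Dusp5 abut, and Zfp36 (chr7:28379229-28379378, minus strand) holds 1.
Dusp5: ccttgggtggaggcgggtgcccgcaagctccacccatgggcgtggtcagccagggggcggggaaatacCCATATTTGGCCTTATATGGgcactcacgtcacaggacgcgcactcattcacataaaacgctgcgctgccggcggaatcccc
Srf: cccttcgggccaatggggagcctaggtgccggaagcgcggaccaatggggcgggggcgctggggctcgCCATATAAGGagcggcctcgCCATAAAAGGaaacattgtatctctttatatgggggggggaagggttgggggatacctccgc
Zfp36: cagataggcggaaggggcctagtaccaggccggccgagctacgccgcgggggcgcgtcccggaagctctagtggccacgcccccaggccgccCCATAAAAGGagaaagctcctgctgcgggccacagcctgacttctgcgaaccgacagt

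The cAMP response element was found in 4 of 31 members (12.9%), against 1.77% of genes. These were Maff (0.999), Btg2 (0.39), Dusp1 (-0.13) and Errfi1 (-0.64), so that the same letters stood before an AP-1 subunit that read higher and before the lowest feedback inhibitor. The windows are those of Maff (chr15:79347370-79347519, plus strand), Dusp1 (chr17:26508473-26508622, minus strand) and Errfi1 (chr4:150854920-150855069, plus strand); Maff and Errfi1 have other annotated starts whose windows lack it.
Maff: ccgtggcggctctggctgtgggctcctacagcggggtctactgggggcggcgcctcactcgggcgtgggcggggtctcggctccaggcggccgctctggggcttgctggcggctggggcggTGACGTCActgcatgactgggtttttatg
Dusp1: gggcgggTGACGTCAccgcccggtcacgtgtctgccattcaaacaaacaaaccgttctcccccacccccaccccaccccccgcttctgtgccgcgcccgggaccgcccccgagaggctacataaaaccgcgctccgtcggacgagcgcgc
Errfi1: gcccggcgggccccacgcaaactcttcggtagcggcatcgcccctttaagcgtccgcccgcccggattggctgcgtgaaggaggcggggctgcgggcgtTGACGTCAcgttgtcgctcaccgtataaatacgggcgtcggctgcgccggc

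The Egr site was found in 9 of 31 members (29.0%), against 3.47% of genes, namely Fosb, Fosl2, Klf2, Klf4, Nr4a1, Zfp36, Maff, Mafk and Srf, whose differences ran from -0.58 to 0.999. Both forms of this motif consist of G and C but for at most 1 letter, and the 41 member windows had a median G and C content of 64.4% against 52.4% over all 32851 windows. The AP-1 site was found in 1 member, Csrnp1 (3.23%), against 7.82% of genes. The MEF2 site, the element through which Klf2 is known to answer flow, was found in Klf2, Jun, Atf3 and Nr4a2 (12.9%), against 3.42% of genes, with differences from 0.05 to 0.82. The Klf2 window (chr8:72318912-72319061, plus strand) is shown as that of a Klf gene, a family in which all members read higher.
Klf2: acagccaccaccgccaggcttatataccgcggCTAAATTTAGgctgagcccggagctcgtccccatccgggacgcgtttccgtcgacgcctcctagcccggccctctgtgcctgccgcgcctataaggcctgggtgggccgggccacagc

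Other genes of the pathway were read from lists of named genes. These lists were written with earlier results of these data known, so their shares beside those of all genes are descriptions only. Of 24 measured upstream kinases and transcription factors, 17 (70.8%) lay above 0, against 56.1% of all measured genes, and their median was 0.27. None was past 2-fold in either direction, where the shares over all measured genes were 3.53% upward and 2.87% downward. The highest were cofactors and partners of serum response factor, Mrtfa (471.7 against 260.9, 0.85), Mrtfb (1920 against 1141, 0.75, but -0.43 and 0.32 in other sets) and the ternary complex factor Elk3 (2230 against 1351, 0.72). The lowest were the kinases of the ERK cascade Araf (-0.25), Map2k2 (-0.18) and Map2k1 (-0.17), of which Araf and Map2k2 had other sets above 0. Values in this list ran from -0.25 to 0.85, within the members' range of -0.85 to 1.59 at the same floor.

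Of 56 further measured immediate early genes, 48 (85.7%) lay above 0, against 56.1% of all measured genes. The median of the 56 was 0.40, close to that of the members. Of these 10 (17.9%) passed 2-fold upward, against 3.53% of all genes, and none downward. The genes were listed with earlier results of these data known, so the contrast is a description only. Highest were the chemokine genes Ccl2 (554.1 against 44.3, at least 10.5-fold) and Cxcl2 (390.8 against 96.5, 4.05-fold) and the stress gene Gadd45b (1992 against 421.7, 4.72-fold, and 2.33 on the log2 scale in its second set). The lowest were the repressor Nfil3 (142.7 against 232.6, -0.71), the kinase gene Plk3 (308.2 against 501.5, -0.70) and Hbegf (905.1 against 1439, -0.67), which encodes a ligand of the EGF receptor that Errfi1 restrains. These 3 highest genes exceeded every member in size.

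Of 26 measured late targets of AP-1 and serum response factor, 8 (30.8%) passed 2-fold upward, against 3.53% of all genes, and 1 (3.85%) downward, against 2.87%. The median of the 26 was 0.61, and 6 of them are also on the glomerular marker lists. They too were listed with earlier results of these data known. The adhesion receptor gene Cd44 was 5.50-fold, fibronectin (Fn1) 4.57-fold and Lcn2, a secreted lipocalin, 3.65-fold higher. The protease genes Mmp9 (at least 2.49-fold) and Plau (260.2 in the control and 145.4 in the double knockout, -0.84) were lower and Actg1 read -0.15. Of 19 measured AP-1 partners and other bZIP factors 16 (84.2%) lay above 0 (median 0.30), against 56.1% of all measured genes. Batf2 (1.07), Jdp2 (0.94) and Batf (0.87) were highest. Maf (7976 against 14495, -0.86), Bach2 (-0.61, but -0.39 and 0.17 in other sets) and Cebpa (-0.23) were lowest. Of 15 measured heat shock genes 11 (73.3%) lay above 0 (median 0.32), against 56.1% of all measured genes. Hspb1, the small heat shock protein downstream of p38, was 2.26-fold higher, followed by Hspa1b (0.82) and the co-chaperone gene Bag3 (0.79). The mitochondrial chaperonin genes Hspd1 and Hspe1 read -0.68 and -0.66. Hspa4l read -0.11, with its other sets from -0.50 to 0.27.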

How the data were processed

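RNA of 1 glomerular sample per genotype was hybridised to 1-colour Affymetrix arrays. The values are intensities on a linear scale, 1 per probe set, made by the authors with MAS5, per the submitters' processing notes, which name no version. MAS5 scales all arrays to 1 mean. On both arrays the mean without the lowest and highest 2% was 500.0, so a difference is relative to the rest of that sample. The 45101 probe sets include 64 controls, which were left out. Symbols came from GEO's platform annotation (34945 probe sets with 1 symbol, 932 with several, 9160 with none), and 34741 matched the RefSeq gene table of GRCm38.p6.

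Signals below the floor (52.7) were raised to it, log2 was taken and the control subtracted. A gene was represented by its probe set of highest mean log2 signal with 1 symbol, without cross-hybridising _x_at sets where another existed; all member sets are shown. Folds against a signal below the floor are lower bounds. With 1 array per group no test was made, and the number of arrays limits the precision. Named were all members and, of each pathway list, the 3 highest and 3 lowest genes. Members and lists were chosen with earlier results of these data known; of the listed genes, those without a probe set of their own are not analysed here. Alternatives comprised other floors, scalings, probe set choices and fold rules. The steps were tested on simulated data, with Python 3.11.15, numpy 2.4.6, pandas 2.3.3 and statsmodels 0.14.6.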

Additional observations from a re-analysis of the deposited data

How the results depend on the processing

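The members' median of 0.38 changed sign under 1 setting, recentring on glomerular cell markers (-0.25), where the median of all measured genes was -0.57. It ranged from 0.20 to 0.43 under the other scalings, floors and probe set choices. The count of members at least 2-fold higher (2 of 38, with 3.53% of all genes) became 4 of 39 under a floor at the 25th percentile (4.33% of all genes) and 4 of 40 with no floor (9.10%), a share near that of all genes. It was 0 under a floor at the 60th percentile (2.64% of all genes) or after recentring on glomerular markers (0.504%), 14 at 1.5-fold (13.7%), and 1 with a pseudocount of 32 (2.84%), after centring on the median or on the 75th percentile (2.50% each), after removal of a loess trend (2.57%), and with the probe set of median difference (2.60%). The count at least 2-fold lower (0) was 1 after removal of the loess trend (Nr4a3; 3.31% of all genes), 3 after recentring (18.3%) and 2 at 1.5-fold (10.0%). With the probe set of median difference Egr3 changed sign (-0.70), as did Cebpd (-0.37) and Egr2 (-0.22). Signs of 23 members differed between settings, for all but 7 of these only through the recentring on glomerular markers. Leaving out that value of Egr3, 424 values of single members under the alternatives stayed within the robust SD between probe sets and 60 moved by more. Changes of sign fall in both of these groups. The cause was not tested. No paired analysis was possible because each genotype has 1 array. Precision is set by the number of arrays, and members near the floor have the least.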
